A study of Homo sapiens with 9 samples.

Results

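10 genes that encode folding factors of the endoplasmic reticulum (ER), or targets of the transcription factor XBP1, were compared across parental A549 cells and the transduced lines OSK-A549-Colony and OSK-A549-SN: HSPA5, HSP90B1, DNAJB9, DNAJC3, PDIA4, SDF2L1, HERPUD1, XBP1, CRELD2 and MANF. Every non-control probe of the array whose annotated RefSeq transcript belonged to 1 of these genes was taken, which gave 11 probes for 10 of the 21743 gene names on the array. HSP90B1 had 2 probes and each of the other genes had 1. On each of the 9 arrays all 11 probes were well above background.

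A549 is a line from a human lung adenocarcinoma, and the study asked what distinguishes stem-like cells derived from it. Parental A549 cells (3 arrays) carried no transgene by their labels. OSK-A549-Colony cells, below also Colony cells (3 arrays), were A549 cells that had been transduced with OCT3/4, SOX2 and KLF4 in pMXs retroviruses and then kept by picking the colonies that stayed on the dish in trypsin. OSK-A549-SN cells, below also SN cells (3 arrays), were the spindle-shaped cells around those colonies, which came off first in trypsin. The methods give 3 independent transduction experiments. The transduced cells were separated by trypsin and were at higher passage than the parental cells, as read from the sample titles, so that transduction, this handling and passage cannot be told apart, and a group transduced with an empty or EGFP vector was not analysed here. In bulk RNA, fewer cells of a type and less RNA per cell cannot be told apart either.

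Secreted and membrane proteins fold in the ER, where HSPA5 (BiP) and HSP90B1 (GRP94) are the main chaperones. When unfolded proteins accumulate, 3 sensors of the unfolded protein response (UPR) are activated. IRE1 (ERN1) splices XBP1 mRNA into the form that encodes the active factor, ATF6 is cleaved in the Golgi to release a transcription factor, and PERK (EIF2AK3) phosphorylates eIF2-alpha and raises the translation of ATF4. ATF6 and XBP1 induce chaperones, folding enzymes and degradation factors, and ATF4 induces amino acid synthesis genes and DDIT3 (CHOP). Secretory cells are known to depend on this response.

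The promoters are shown because ATF6 and XBP1 bind ER stress elements near the start of such genes. The RefSeq promoter table (GRCh38.p14) held 12 windows for the 10 genes, each from 250 bases before to 50 bases after a start, with 2 windows each for PDIA4 and XBP1. An ER stress element (ERSE) was taken as CCAAT, any 9 bases and CCACG on either strand, and lay in the windows of HSPA5, HSP90B1, XBP1 and CRELD2. The 200 bases before the start are given for the first 3 of these genes, 5′ to 3′ along the gene's strand, with each ERSE in capitals.
HSPA5 (chr9:125241344-125241543, minus strand): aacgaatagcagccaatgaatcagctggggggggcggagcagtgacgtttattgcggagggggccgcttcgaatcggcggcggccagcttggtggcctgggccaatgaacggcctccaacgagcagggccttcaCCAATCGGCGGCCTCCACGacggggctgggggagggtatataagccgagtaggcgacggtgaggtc
XBP1 (chr22:28800570-28800769, minus strand): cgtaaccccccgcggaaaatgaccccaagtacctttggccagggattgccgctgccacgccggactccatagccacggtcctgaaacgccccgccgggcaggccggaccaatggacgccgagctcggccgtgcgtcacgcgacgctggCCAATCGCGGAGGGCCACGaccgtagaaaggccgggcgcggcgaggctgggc
HSP90B1 (chr12:103930210-103930409, plus strand): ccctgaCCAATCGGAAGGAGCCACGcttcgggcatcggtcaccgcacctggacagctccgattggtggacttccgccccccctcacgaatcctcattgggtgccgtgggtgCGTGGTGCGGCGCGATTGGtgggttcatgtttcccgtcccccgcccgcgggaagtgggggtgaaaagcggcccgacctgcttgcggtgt

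By this exact pattern HSPA5 and XBP1 each held 1 ERSE in this window, and HSP90B1 held 2, of which the second read on the opposite strand. Copies that differ from the pattern by a base were not searched for and are not in capitals. The ERSE of HSPA5 ran from position -66 to -48 and that of XBP1 from -52 to -34, where -1 is the base before the start. CRELD2 held 1 ERSE on the opposite strand (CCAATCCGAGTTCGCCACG). The related ERSE-II (ATTGG, any 1 base, CCACG) was found in HERPUD1 as ATTGGGCCACG and in SDF2L1 as ATTGGTCCACG. Of all 35116 promoter windows, 0.0769% held an ERSE and 0.0541% an ERSE-II. The UPR element TGACGTG followed by G or A was in none of the 12 windows and in 1.18% of all windows. DNAJB9, DNAJC3, PDIA4 and MANF held neither form of ERSE in these windows. They held the CCACG part, which was in all 12 windows and in 38.1% of all 35116 and says nothing of binding. The same stretch is shown for DNAJB9 and DNAJC3, the members with the lowest unadjusted p between the transduced groups, with CCACG on either strand in capitals.
DNAJB9 (chr7:108569674-108569873, plus strand): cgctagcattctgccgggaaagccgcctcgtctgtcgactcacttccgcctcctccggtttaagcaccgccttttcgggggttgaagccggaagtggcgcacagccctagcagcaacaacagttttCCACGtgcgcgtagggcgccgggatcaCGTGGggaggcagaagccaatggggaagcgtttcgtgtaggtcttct
DNAJC3 (chr13:95676939-95677138, plus strand): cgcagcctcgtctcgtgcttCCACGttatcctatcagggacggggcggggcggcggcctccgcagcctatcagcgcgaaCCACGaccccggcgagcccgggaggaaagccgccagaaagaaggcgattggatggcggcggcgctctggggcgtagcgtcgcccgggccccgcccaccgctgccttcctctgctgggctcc

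XBP1 and HSPA5 were lower in both kinds of transduced cells than in the parental cells, and DNAJC3 and DNAJB9 were higher in the Colony than in the SN cells. All of these differences were below 2-fold. No member passed limma's test in any of the 3 pairwise comparisons, and XBP1 alone passed the F test across the 3 groups. Values below are log2 intensities relative to the 75th percentile of the array, and calls needed an adjusted p (Benjamini-Hochberg) under 0.05 with a fold change over 2. By that rule 0 of 11 member probes were called for OSK-A549-Colony against parental A549, where 3.7% of all tested probes were called. The same count was 0 of 11 for OSK-A549-SN against parental A549 (background 1.55%) and 0 of 11 between the transduced groups (background 0%). Without the fold minimum the members still numbered 0 in each comparison, against 9.02%, 1.82% and 0% of all probes. At an unadjusted p under 0.05 and any fold, 3 genes passed for OSK-A549-Colony against parental A549 (XBP1, HSPA5 and DNAJC3, background 30.1%). There were 2 for OSK-A549-SN against parental A549 (XBP1 and HSPA5, background 21.6%) and 2 between the transduced groups (DNAJB9 and DNAJC3, background 19.5%).

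**Figure D1:**
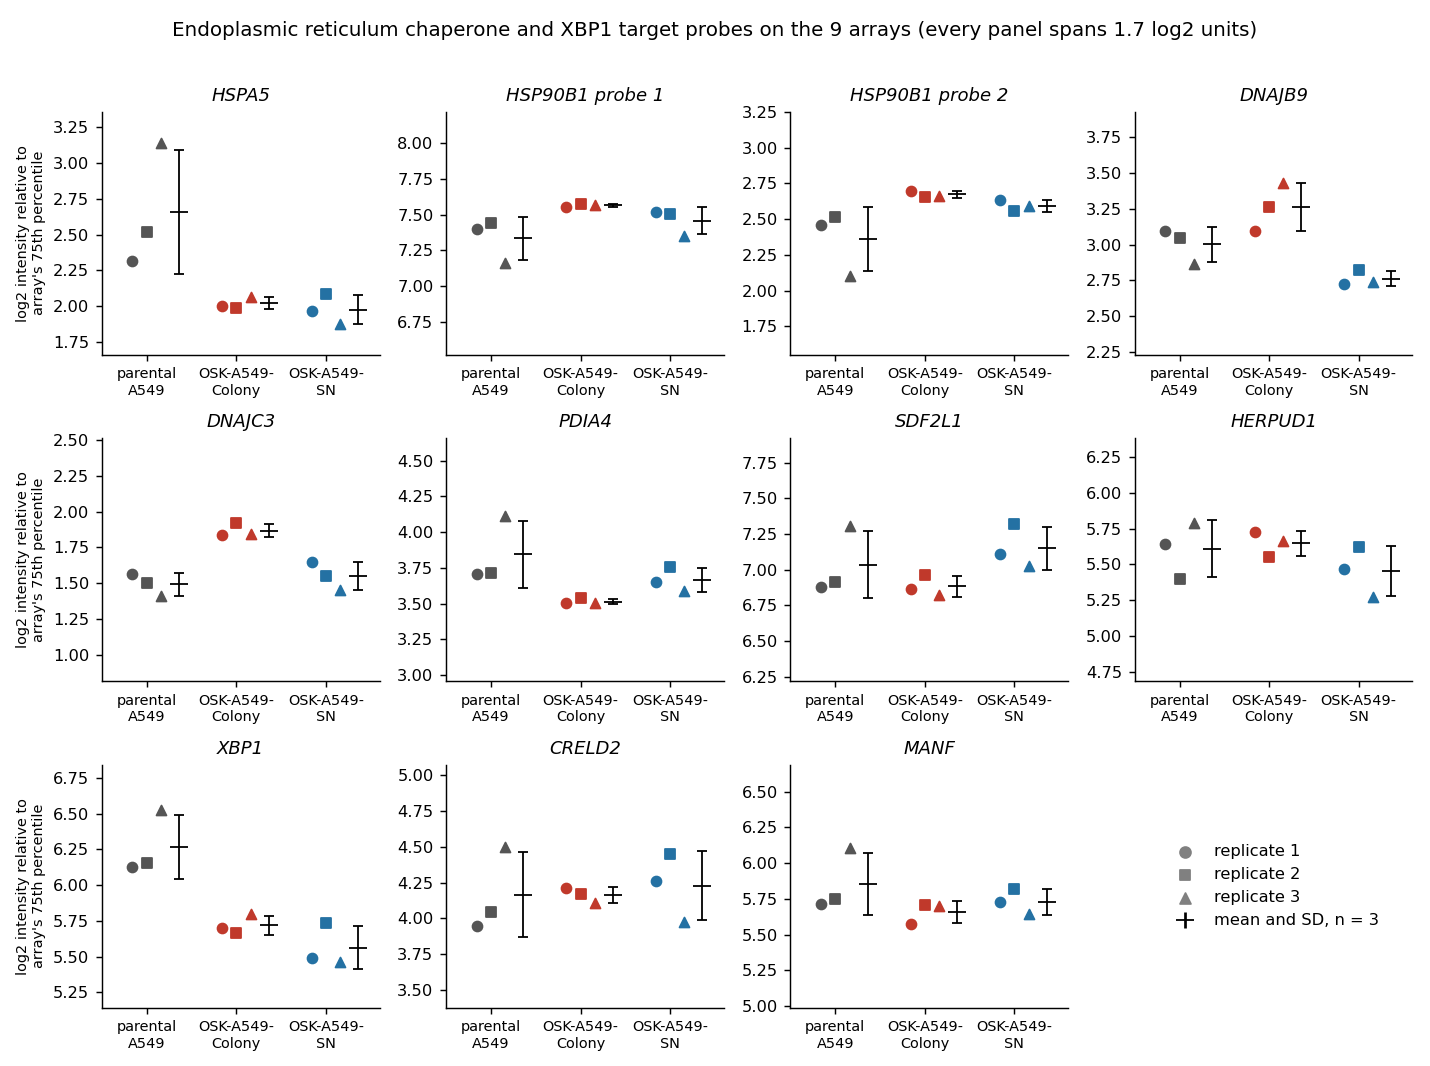
Log2 intensity relative to the array's 75th percentile (vertical axis) of each member probe in parental A549 (grey), OSK-A549-Colony (red) and OSK-A549-SN cells (blue), with replicates 1, 2 and 3 as circles, squares and triangles and the mean with its SD (n = 3) beside them. HSPA5 and XBP1 lay lower on all 6 arrays of transduced cells than on the 3 parental arrays, and parental replicate 3 was the highest parental array for 7 genes and the lowest for HSP90B1, DNAJB9 and DNAJC3.

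XBP1 encodes the transcription factor that IRE1 activates by splicing. It measured 6.13, 6.15 and 6.52 in parental A549, 5.70, 5.67 and 5.80 in OSK-A549-Colony and 5.49, 5.74 and 5.46 in OSK-A549-SN cells. All 6 arrays of transduced cells were below all 3 parental arrays, while the 2 transduced groups overlapped. XBP1 was 1.46-fold lower in the Colony cells than in parental A549 (log2 fold change -0.55, 95% interval -0.90 to -0.20, limma adjusted p = 0.0686). It was 1.63-fold lower in the SN cells than in parental A549 (log2 fold change -0.70, 95% interval -1.12 to -0.29, limma adjusted p = 0.0964). The 2 kinds of transduced cells differed by 0.16 (95% interval -0.11 to 0.42, limma adjusted p = 0.447), and by 0.24 without OSK-A549-SN replicate 2. Both comparisons with parental A549 share the parental arrays, and a 3-against-3 exact permutation test gives 0.1 at the smallest, two-sided, which was the value for both. Across the 3 groups XBP1 passed limma's F test (F = 13.7, adjusted p = 0.0353), as did 11.4% of all 33087 probes tested. The F call was lost when any 1 array other than parental replicates 1 and 3 was left out, with adjusted p between 0.0546 and 0.0868 without the other 7. The probe's place in the transcript was not checked, so spliced and unspliced XBP1 mRNA are not told apart here.

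HSPA5 encodes BiP, the ER member of the HSP70 family, which holds the 3 UPR sensors inactive. It measured 2.32, 2.52 and 3.14 in parental A549, 2.00, 1.99 and 2.07 in OSK-A549-Colony and 1.97, 2.08 and 1.88 in OSK-A549-SN cells. Here too the 6 arrays of transduced cells lay below the parental ones without overlap, and parental replicate 3 was well above the other parental arrays. The log2 fold change was -0.64 in OSK-A549-Colony (95% interval -1.20 to -0.08, limma adjusted p = 0.130) and -0.68 in OSK-A549-SN cells (95% interval -1.26 to -0.10, limma adjusted p = 0.180). Without parental replicate 3 these values became -0.40 (limma adjusted p = 0.0586) and -0.44 (limma adjusted p = 0.159). For XBP1 they became -0.42 (limma adjusted p = 0.0400) and -0.58 (limma adjusted p = 0.116). The F test gave an adjusted p of 0.0881 for HSPA5.

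HSP90B1 encodes GRP94, the ER member of the HSP90 family, and had log2 fold changes above 0 against parental A549. Its first probe measured 7.40, 7.44 and 7.17 in parental A549, 7.56, 7.57 and 7.57 in OSK-A549-Colony and 7.52, 7.51 and 7.35 in OSK-A549-SN cells. Its second probe gave 2.46, 2.51 and 2.11, then 2.70, 2.66 and 2.66, then 2.64, 2.55 and 2.59 in the same order. With both probes every OSK-A549-Colony array was above every array of the other groups, although by small amounts. The log2 fold change against parental A549 was 0.23 with the first probe (95% interval -0.05 to 0.51, limma adjusted p = 0.228) and 0.31 with the second (95% interval -0.03 to 0.66, limma adjusted p = 0.196). Without parental replicate 3 these values became 0.15 and 0.19. Both probes had the same sign in all 3 comparisons.

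DNAJB9 (ERdj4) and DNAJC3 (p58IPK) are J-domain co-chaperones of HSPA5. DNAJB9 measured 3.09, 3.05 and 2.86 in parental A549, 3.09, 3.26 and 3.43 in OSK-A549-Colony and 2.73, 2.82 and 2.74 in OSK-A549-SN cells. The 2 kinds of transduced cells lay on either side of the parental mean, with no overlap between them. DNAJB9 was 1.41-fold higher in the Colony than in the SN cells (log2 fold change 0.50, 95% interval 0.22 to 0.78, limma adjusted p = 0.130). The OSK-A549-Colony arrays overlapped the parental ones (log2 fold change 0.26, limma adjusted p = 0.250), and the OSK-A549-SN arrays were all below them (log2 fold change -0.24, limma adjusted p = 0.343). DNAJC3 measured 1.57, 1.50 and 1.41 in parental A549, 1.84, 1.92 and 1.84 in OSK-A549-Colony and 1.65, 1.55 and 1.45 in OSK-A549-SN cells. The OSK-A549-Colony arrays were above all 6 others, which overlapped each other. The log2 fold change was 0.37 against parental A549 (95% interval 0.14 to 0.61, limma adjusted p = 0.0682) and 0.32 against OSK-A549-SN (95% interval 0.10 to 0.54, limma adjusted p = 0.168). OSK-A549-SN replicate 3 was hybridised on a slide of its own, and without it, which equals taking slide as a block, DNAJB9 and DNAJC3 still differed by 0.49 and 0.27 on the log2 scale between the transduced groups (limma adjusted p = 0.168 and 0.177 with slide as a block). With normexp correction DNAJB9 passed between the transduced groups (limma adjusted p = 0.0363). DNAJC3 passed against parental A549 in OSK-A549-Colony with normexp correction, with detection on all arrays of a group and in 1 fit of all 9 arrays (limma adjusted p = 0.0303, 0.0458 and 0.0444).

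PDIA4 (ERp72) is a disulfide isomerase. It measured 3.70, 3.72 and 4.11 in parental A549, 3.50, 3.54 and 3.50 in OSK-A549-Colony and 3.65, 3.75 and 3.59 in OSK-A549-SN cells. The OSK-A549-Colony arrays were the lowest of the 3 groups without overlap, and the other groups overlapped. The log2 fold change against parental A549 was -0.33 (95% interval -0.68 to 0.02, limma adjusted p = 0.188), and -0.20 without parental replicate 3. SDF2L1, a cofactor of HSPA5 and DNAJB11, measured 6.88, 6.92 and 7.30 in parental A549, 6.86, 6.96 and 6.82 in OSK-A549-Colony and 7.11, 7.32 and 7.03 in OSK-A549-SN cells. The OSK-A549-Colony arrays were below the OSK-A549-SN arrays and overlapped the parental ones. The log2 fold change of SDF2L1 between the transduced groups (Colony minus SN) was -0.27 (95% interval -0.54 to 0.00, limma adjusted p = 0.258).

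The other 3 members had the lowest F values of the 10 genes, and none passed a test. HERPUD1, a membrane protein of ER-associated degradation, ranged from 5.40 to 5.79 in parental A549, 5.55 to 5.73 in OSK-A549-Colony and 5.28 to 5.62 in OSK-A549-SN cells. CRELD2, a secreted ER stress protein, ranged from 3.95 to 4.50, 4.11 to 4.22 and 3.98 to 4.45 in the same order. MANF, an ER-resident trophic factor, ranged from 5.71 to 6.11, 5.57 to 5.71 and 5.64 to 5.82. The groups overlapped in all comparisons of these genes, except that MANF in OSK-A549-Colony lay just below parental A549. The 95% intervals of the 9 pairwise differences of these 3 genes reached at most 0.58 on the log2 scale in either direction, so a 2-fold change of any of them lay outside its interval. A p that missed the threshold does not show that the levels were alike.

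**Figure D2:**
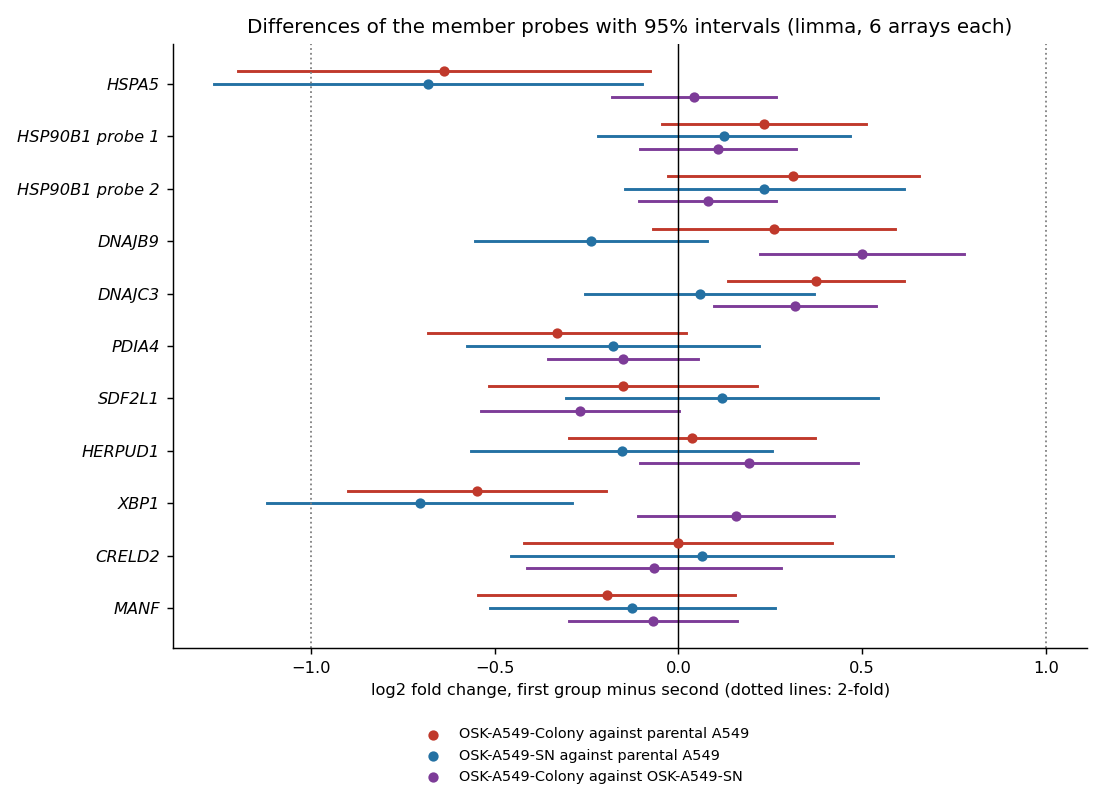
Log2 fold change (horizontal axis, first group minus second) of each member probe with its 95% interval from limma, for OSK-A549-Colony against parental A549 (red), OSK-A549-SN against parental A549 (blue) and OSK-A549-Colony against OSK-A549-SN (purple). XBP1 and HSPA5 lie left of 0 in both comparisons with parental A549, from -0.55 to -0.70, and DNAJB9 lies at 0.50 between the transduced groups.

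Counted as a group, the 10 genes did not move one way. With 1 probe per gene, 4 were higher in the Colony cells than in parental A549 and 6 were lower, with a median log2 fold change of -0.08 beside -0.03 over all probes. In OSK-A549-SN against parental A549, 4 were higher and 6 lower (median -0.14, all probes 0.08), and between the transduced groups the Colony cells had 6 higher and 4 lower (median 0.08, all probes -0.06). Without parental replicate 3 the first count became 5 higher and 5 lower, with a median of 0.06. Without parental replicate 3 and OSK-A549-SN replicate 3 the second became 6 higher and 4 lower, with a median of 0.03. Without OSK-A549-SN replicate 3 alone it stayed at 4 higher and 6 lower (median -0.07). Over all alternatives that median ranged from -0.25 to 0.03. Without OSK-A549-SN replicate 3 the third became 5 higher and 5 lower (median 0.02). Of the 11 probes, 7 did not overlap between OSK-A549-Colony and parental A549, where 41.6% of all probes did not. The count was 4 of 11 for OSK-A549-SN against parental A549 (background 32.1%) and 6 of 11 between the transduced groups (background 30.8%).

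Parental replicate 3 exceeded the mean of the other parental arrays by 0.72 for HSPA5, 0.51 for CRELD2, 0.41 for SDF2L1, 0.40 for PDIA4, 0.39 for XBP1, 0.38 for MANF and 0.27 for HERPUD1 on the log2 scale. On the same array HSP90B1 (-0.25 and -0.38), DNAJB9 (-0.21) and DNAJC3 (-0.12) were lower. Thus 7 genes were higher and 3 lower on that array. The whole array also stood apart, with a median absolute difference of 0.30 from the other parental arrays over all probes, against 0.20 and 0.18 for replicates 1 and 2. A difference as high as that of HSPA5 was reached by 4.21% of the 24501 probes, and one as high as those of the other 6 higher genes by 12.6% (CRELD2) to 35.6% (HERPUD1). With 1 probe per gene, OSK-A549-SN replicate 2 was above the mean of its group's other arrays for 10 of 10 members (median 0.15, all probes 0.04), and OSK-A549-SN replicate 3 was below such a mean for 10 of 10 (median -0.15, all probes -0.07). Slide and replicate cannot be told apart for the latter array. The part of these arrays' other features in the members' levels was not tested.

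**Figure D3:**
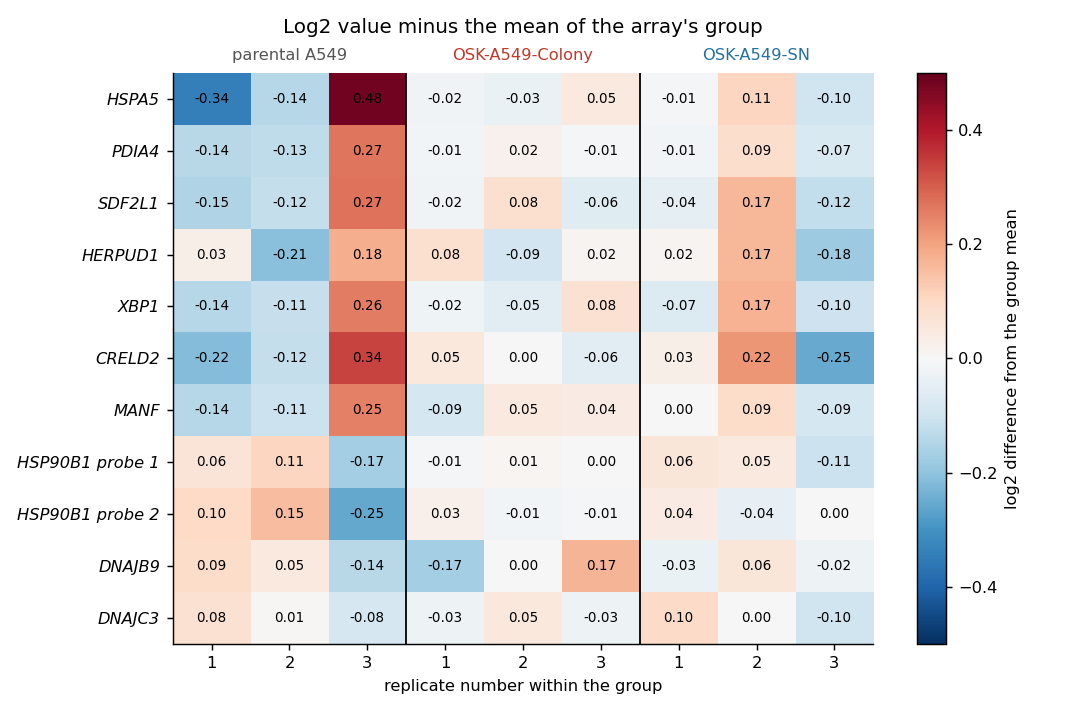
Log2 value of each member probe (rows) on each array (columns) minus the mean of that array's group, with red for higher and blue for lower and the difference printed in each cell. In parental replicate 3 the upper 7 genes lie 0.18 to 0.48 above their group mean and the lower 4 probes, of HSP90B1, DNAJB9 and DNAJC3, lie below it.

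After subtraction of group means, 7 members (HSPA5, PDIA4, SDF2L1, HERPUD1, XBP1, CRELD2 and MANF) correlated with each other at Pearson's r between 0.59 and 0.96 over the 9 arrays. HSPA5 and PDIA4 gave the highest value. HSP90B1, DNAJB9 and DNAJC3 correlated positively with each other (0.31 to 0.78) and negatively with each of the 7. These values are descriptions over 9 arrays that share the scaling, 8 of them on 1 slide. The 7 genes are also those that were higher on parental replicate 3. That array held the largest deviation from a group mean for each of them except HERPUD1, so the grouping is not independent of that array. Values of r without it are not given here. The 5 genes whose levels across the 9 arrays were most like the mean standardised profile of the members were GTPBP6 (r = 0.99), ERCC1, NUP214, COQ8B and TSC2 (0.98 each), of 13934 genes compared. That mean profile was highest in parental replicate 3 (0.94 SD) and lowest in OSK-A549-SN replicate 3 (-0.89 SD).

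Of the UPR genes around the members, CHAC1 and ASNS of the PERK and ATF4 arm were called higher in OSK-A549-Colony cells. The mRNA of ATF4, named after its values were seen, was at 0.13 against parental A549 (limma adjusted p = 0.496). Whether PERK or another route raised these genes was not tested. In this list 8 of 9 genes were higher in the Colony cells than in parental A549 (median log2 fold change 0.55, all probes -0.03), and CEBPB was lower (-0.18). Of the 9 genes 2 were called, where 3.7% of all probes were. CHAC1, a glutathione-degrading enzyme induced by ATF4, measured 0.33, 0.75 and 0.18 in parental A549, 2.03, 1.65 and 2.32 in OSK-A549-Colony and 0.78, 1.05 and 0.28 in OSK-A549-SN cells. The OSK-A549-Colony arrays were above all others, and CHAC1 rose by 1.58 on the log2 scale over parental A549 (95% interval 1.00 to 2.16, limma adjusted p = 0.0271). ASNS, asparagine synthetase, measured 5.98, 5.95 and 5.22 in parental A549, 6.87, 6.85 and 7.19 in OSK-A549-Colony and 6.23, 6.16 and 6.11 in OSK-A549-SN cells. It rose by 1.25 over parental A549 (95% interval 0.65 to 1.86, limma adjusted p = 0.0403), again with no overlap. Both calls were lost without parental replicate 2, or without OSK-A549-Colony replicate 1, 2 or 3, with adjusted p between 0.0687 and 0.101 for CHAC1 and between 0.0957 and 0.135 for ASNS, while the log2 fold changes stayed at 1.14 or more. The ASNS call was also lost with quantile normalization (limma adjusted p = 0.0559) and with no detection filter (limma adjusted p = 0.0727). Without parental replicate 3 its log2 fold change was 1.00, just above the 2-fold minimum.

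Against OSK-A549-SN, 9 of 9 genes of this arm were higher in OSK-A549-Colony cells (median 0.67, all probes -0.06), from 0.01 for CEBPB to 1.30 for CHAC1 (limma adjusted p = 0.118), and none was called. With normexp correction CHAC1 was called there (1.22, limma adjusted p = 0.0366). Without OSK-A549-SN replicate 3 the count was 8 of 9 (median 0.56). In OSK-A549-SN against parental A549 the arm gave 3 higher and 6 lower (median -0.04), from -0.39 for DDIT3, which encodes CHOP, to 0.45 for ASNS (0.20 without parental replicate 3), and 5 higher and 4 lower without OSK-A549-SN replicate 3. XBP1 and HSPA5 had log2 fold changes below 0 in the same OSK-A549-Colony cells in which CHAC1 and ASNS were called higher.

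The UPR sensors and transducers had no called gene. Here and in the lists that follow, the highest and the lowest gene are those among genes well above background on every array compared. In OSK-A549-Colony against parental A549, 6 of 8 were higher (median 0.30), from -0.16 for MBTPS1, a protease that cleaves ATF6, to 0.43 for ATF6 (limma adjusted p = 0.0553). MBTPS1 was at -0.04 without parental replicate 3. ATF6 passed in 5 of 13 alternatives, with limma adjusted p between 0.0304 and 0.0438. EIF2AK3, which encodes PERK, had the highest value in OSK-A549-SN against parental A549 (0.46, limma adjusted p = 0.180), and MBTPS1 the lowest (-0.14, and -0.02 without parental replicate 3). Between the transduced groups the values ran from -0.16 for ATF6B (0.01 without OSK-A549-SN replicate 3) to 0.15 for MBTPS2. ERN1, which encodes IRE1, was well above background on 2 parental, 1 OSK-A549-Colony and 3 OSK-A549-SN arrays and is named after its values were seen. Against parental A549 its log2 fold change was -0.38 in the Colony cells and -0.19 in the SN cells, and it was -0.19 between the transduced groups, with no limma adjusted p under 0.05. For the Colony cells against parental A549 it passed in 1 fit of all 9 arrays (limma adjusted p = 0.0308) and without parental replicate 3 (limma adjusted p = 0.0471). The first 2 values became -0.03 and 0.04 with normexp background correction, and the third became -0.0062 with quantile normalization, so ERN1 was not ranked against the other genes.

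Other ER folding enzymes and chaperones gave 10 higher and 12 lower of 22 measured for the Colony cells against parental A549 (median -0.04) and none called. The lowest was ERO1B, an oxidase that recharges disulfide isomerases, at -0.86 (95% interval -1.35 to -0.36, limma adjusted p = 0.0554), and the highest FKBP14, a prolyl isomerase, at 0.41. The same genes marked both ends in OSK-A549-SN against parental A549, at -0.77 (limma adjusted p = 0.0779) and 0.38, with 11 higher and 11 lower. The first count became 13 higher and 9 lower without parental replicate 3 (median 0.07), and the second 15 and 7 without OSK-A549-SN replicate 3, or 16 and 6 without both arrays. The values of ERO1B became -0.31 and -0.29 with normexp correction. It passed with detection on all arrays of a group (limma adjusted p = 0.0227 and 0.0336) and in 1 fit of all 9 arrays (limma adjusted p = 0.0263 and 0.0460). Between the transduced groups FKBP7 was lowest (-0.39) and CANX, the membrane lectin chaperone calnexin, highest (0.18). CDNF, a relative of MANF that was not above background on every array and is named after its values were seen, was at -0.63 there (limma adjusted p = 0.144), and at -0.13 with normexp correction. On parental replicate 3, 17 of these 22 genes were above the mean of the other parental arrays (median 0.24, all probes 0.14), and on OSK-A549-SN replicate 3, 18 of 22 were below the mean of that group's other arrays (median -0.20).

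Genes of ER-associated degradation gave 8 higher and 7 lower of 15 for the Colony cells against parental A549 (median 0.06). EDEM2, a mannosidase-like protein that marks glycoproteins for degradation, fell by 0.60 on the log2 scale (limma adjusted p = 0.0445), short of the 2-fold minimum. That result was lost with no detection filter and without parental replicate 2 or OSK-A549-Colony replicate 1, 2 or 3 (limma adjusted p between 0.0983 and 0.162). Its relative EDEM3 had the highest value, 0.92 (95% interval 0.20 to 1.65, limma adjusted p = 0.101), which became 0.60 without parental replicate 3 (limma adjusted p = 0.0336). In OSK-A549-SN against parental A549 EDEM2 was at -0.36 and EDEM3 at 0.44 (0.12 without parental replicate 3). Between the transduced groups EDEM3 was at 0.48 and DERL3, a channel component, at -0.34 (-0.17 without OSK-A549-SN replicate 3).

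Genes of translocation into the ER and of N-glycosylation were mostly higher in both transduced groups, by small amounts. In OSK-A549-Colony against parental A549, 21 of 23 were higher (median 0.33, all probes -0.03) and none was called. Of the 23, 2 passed without the fold minimum, where 9.02% of all probes did. 1 was SEC61G, a subunit of the translocation channel, at 0.48 (limma adjusted p = 0.0383). The other was SEC11C, a signal peptidase subunit, at 0.60 (limma adjusted p = 0.0414). Neither passed with no detection filter or without any 1 of the 6 arrays other than parental replicate 3 (limma adjusted p between 0.0576 and 0.159). Without parental replicate 3, 8 genes of this list passed. There the count went from 1 to 4 for ER-associated degradation and from 0 to 3 for the UPR sensors, and stayed at 4 for transport. The share of all probes in that setting is not given here. SRPRB, a signal recognition particle receptor subunit, had the highest value, 0.65 (limma adjusted p = 0.0505), and DDOST, a subunit of the oligosaccharyltransferase, the lowest, -0.16 (-0.03 without parental replicate 3). SRPRB passed in 4 of 13 alternatives, with limma adjusted p between 0.0132 and 0.0432. In OSK-A549-SN against parental A549, 20 of 23 were higher (median 0.14, all probes 0.08), with SEC61G highest at 0.44 (limma adjusted p = 0.114, and 0.0259 in 1 fit of all 9 arrays) and DDOST lowest at -0.18 (-0.06 without parental replicate 3 or OSK-A549-SN replicate 3). Between the transduced groups SEC63, which links the channel to HSPA5, was highest (0.36) and DPAGT1 lowest (-0.18, but -0.11 without OSK-A549-SN replicate 2 and -0.29 without OSK-A549-SN replicate 3).

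ER to Golgi transport genes gave 14 higher and 4 lower of 18 for the Colony cells against parental A549 (median 0.18) and again none called. Of the 18, 4 passed without the fold minimum, where 9.02% of all probes did (limma adjusted p between 0.0241 and 0.0485). SEC23B (0.73) and SEC24D (0.57) of these form the inner COPII coat. The others were SAR1B (0.73), the GTPase that starts its assembly, and MCFD2 (0.66), a cargo receptor cofactor. All 4 were lost with no detection filter and without parental replicate 2 or OSK-A549-Colony replicate 1, 2 or 3 (limma adjusted p up to 0.154). SAR1B was lost in 8 of 13 alternatives, which included quantile normalization (limma adjusted p = 0.0645) and the lack of parental replicate 1 (limma adjusted p = 0.0549), and SEC24D was lost without parental replicate 1 too (limma adjusted p = 0.0532). MCFD2 was also the 1 gene of this list past adjusted p 0.05 in OSK-A549-SN against parental A549 (0.86, limma adjusted p = 0.0432), where 1.82% of all probes passed. That result was lost without any 1 of the 6 arrays (adjusted p 0.0637 to 0.184). KDELR1, a receptor that returns HSPA5 and HSP90B1 to the ER, was lowest in OSK-A549-Colony against parental A549 (-0.27, limma adjusted p = 0.270, and -0.14 without parental replicate 3). GOLGB1, a Golgi tether, was lowest in OSK-A549-SN against parental A549 (-0.30, and -0.57 to -0.15 with 1 array left out) and highest between the transduced groups (0.70, limma adjusted p = 0.126, and 0.0324 with normexp correction). SEC61G, SEC11C, SEC23B, SEC24D and, for OSK-A549-Colony, MCFD2 were named after their values were seen.

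**Figure D4:**
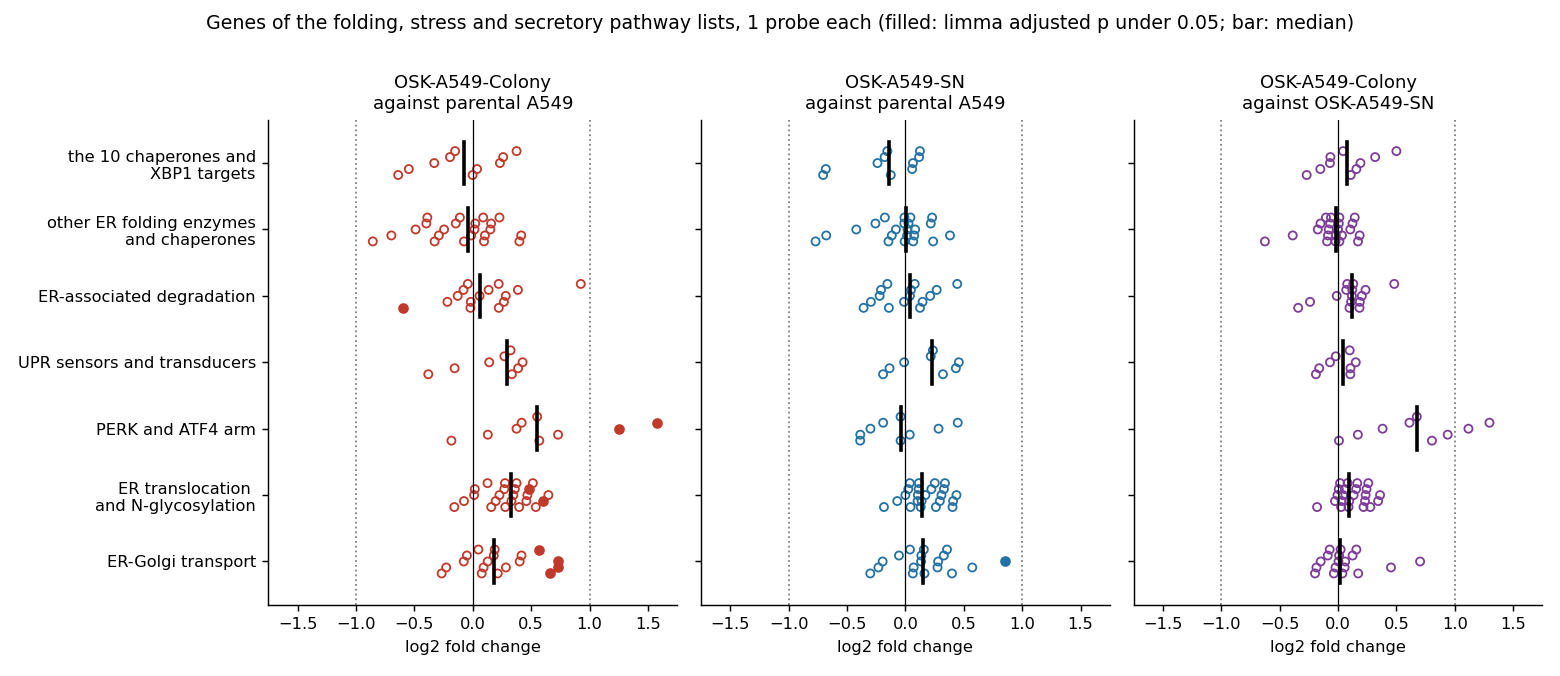
Log2 fold change (horizontal axis) of every measured gene of the 10 members and of 6 pathway lists in the 3 comparisons, 1 probe per gene, with filled points for a limma adjusted p under 0.05, black bars for list medians and dotted lines at 2-fold. Of the PERK and ATF4 arm, 8 of 9 and 9 of 9 genes lie to the right of 0 in the comparisons of OSK-A549-Colony cells, with medians of 0.55 and 0.67, while the members lie on both sides.

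Genes other than the members that hold an ERSE in the promoter window numbered 21, of which 12 were tested in OSK-A549-Colony against parental A549. There 4 were higher and 8 lower, with a median of -0.11 beside -0.03 over all probes. They included the chaperones CALR (-0.33, limma adjusted p = 0.254) and CANX (0.10), the disulfide isomerase PDIA6 (-0.29) and ERO1B (-0.86). 1 gene was called, TMEM120A (-1.02, limma adjusted p = 0.0356), where 3.7% of all probes were called. SERP1, a translocon-associated ER stress protein, was at 0.56 (limma adjusted p = 0.0367) and ZNF17, a zinc finger gene, at 0.74 (limma adjusted p = 0.0221). Without the fold minimum these 3 of the 12 genes passed, as did 9.02% of all probes. These 3 results were lost with no detection filter and without parental replicate 2 or OSK-A549-Colony replicate 1, 2 or 3 (limma adjusted p between 0.0518 and 0.139), and that of SERP1 without parental replicate 1 too (limma adjusted p = 0.0599). All 3 genes were named after their values were seen, as were CALR, CANX, PDIA6 and HYOU1 here. Of 17 other genes with an ERSE-II, 14 were tested, with 8 higher and 6 lower (median 0.14), among them the chaperone HYOU1 (0.10). CAMTA1, also named after its values were seen, was at -0.76 (limma adjusted p = 0.0454), short of the 2-fold minimum. Alternatives for CAMTA1 are not given here. In OSK-A549-SN against parental A549 the ERSE genes gave 5 higher and 8 lower (median -0.12, all probes 0.08).

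The arrays had 25809 to 29317 probes well above background and no saturated spots. All 7 epithelial markers (EPCAM, KRT7, KRT8, KRT18, KRT19, CDH1 and CLDN4) exceeded background clearly on all 9 arrays. Of the markers of other cells, 2 of 6 endothelial (VWF and CDH5), 0 of 7 mesenchymal and 2 of 4 leukocyte genes (PTPRC and CD14) did, by the probe with the highest mean. PECAM1, TEK, TIE1, PDGFRB and COL1A2 did on no array. Another VWF probe did on only 3 arrays, and the other PTPRC probes on 5 or on 0 arrays. The passing probes of VWF, CDH5 and PTPRC were weak, between -4.04 and -2.02 on the log2 scale. As a check on scaling, 5 reference genes differed from parental A549 by -0.05 (GAPDH), 0.08 (ACTB), 0.14 (HPRT1), 0.53 (TFRC) and 0.60 (B2M, limma adjusted p = 0.0365) in OSK-A549-Colony cells. In OSK-A549-SN cells the same genes differed by 0.10, 0.06, 0.33, 0.73 and 0.45, with no limma adjusted p under 0.05.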

How the data were processed

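Total RNA of the 9 samples was hybridised by the authors to 1-colour Agilent SuperPrint G3 Human arrays. Per the file headers, Feature Extraction 11.5.1.1 gave a background-subtracted, detrended intensity per spot. The deposited log2 table equalled log2 of that intensity minus 1 constant per array, within 0.001 for all probes, and served as an alternative. Control and outlier spots were left out, spots of a probe were averaged, and each array's 75th percentile was subtracted after log2. The number of arrays, 3 per group, limits the precision.

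Groups were compared pairwise with limma 3.58.1 (R 4.3.3) over probes detected on at least 1 of the 6 arrays, detected meaning well above background on at least 0.5 of a probe's spots, and p-values were adjusted over all probes by the Benjamini-Hochberg method. An F test used all 9 arrays. The fit was tested on simulated data. Tables and figures used Python 3.11.15, pandas 2.3.3, numpy 2.4.6 and matplotlib 3.10.9. Genes were named through RefSeq transcripts, and lists used the probe with the highest mean per gene.

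The members, the gene lists and the tests were chosen with earlier results of these data known. All members, the called genes of each list, its highest and lowest gene in each comparison among those well above background on every array fitted, the 5 nearest profiles and reference genes were named by rule, and others are marked. Alternatives covered normexp correction (offset 50), quantile normalization, the deposited table, detection filters, slide and replicate blocks, 1 fit of all 9 arrays, call thresholds and each array left out. Leaving out parental replicate 3 and OSK-A549-SN replicate 3 together, and list counts without either, were added after seeing the data.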

Additional observations from a re-analysis of the deposited data

How the results depend on the processing

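No member was called in a pairwise comparison under any alternative that kept the adjusted p and the 2-fold minimum. Without that minimum XBP1 fell below an adjusted p of 0.05 in some: its range was 0.0198 to 0.215 for OSK-A549-Colony and 0.0199 to 0.272 for OSK-A549-SN against parental A549. So did DNAJC3 for OSK-A549-Colony against parental A549 (lowest 0.0303) and DNAJB9 between the transduced groups (lowest 0.0363). Of the single-member results under alternatives, 584 kept direction and side of the threshold, 19 passed it newly, 9 lost it and 15 reversed. The cause was not tested.

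Probes called for OSK-A549-Colony against parental A549 (1143) became 333 with normexp, 583 with no detection filter, 2783 without the fold minimum, 2038 by unadjusted p and 0 to 1362 with 1 array left out. For OSK-A549-SN against parental A549 (498) they became 234 with normexp, 215 with no filter, 980 with detection on all arrays of a group, 187 with slide as a block, 1054 in 1 fit of all 9 arrays, 1880 by unadjusted p, 112 without parental replicate 3 and OSK-A549-SN replicate 3, and 0 to 190 with 1 array left out. With slide as a block 74.9% of these calls were higher, against 45.6%. Between the transduced groups (0) they became 32 with normexp, 139 with detection on all arrays of a group, 2 in 1 fit and 662 by unadjusted p. F test calls (3779) became 1978 with no filter, 5820 with detection on all arrays of a group and 986 to 4947 with 1 array, or parental replicate 3 and OSK-A549-SN replicate 3, left out, and members among them (1) became 4 with normexp, 2 with quantile normalization, 0 with no filter, 3 with detection on all arrays of a group and 0 to 1 with 1 array left out. The members' median for OSK-A549-Colony against parental A549 (-0.08) ranged from -0.17 to 0.055 with 1 array left out.

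With the replicate number as a replicate block, calls numbered 0 in each pairwise comparison and F test calls 1194 with 0 members, and no log2 fold change moved. The block ended the results of CHAC1 (limma adjusted p = 0.128), ASNS (0.141), EDEM2 (0.138), SAR1B (0.139) and, for OSK-A549-SN, MCFD2 (0.193). It also ended those of the other pathway and ERSE genes named past 0.05 (0.124 to 0.153), CAMTA1 not included. DNAJB9 and DNAJC3 were at 0.236 and 0.278 between the transduced groups. Deviations of same-numbered arrays correlated at 0.24, 0.073 and 0.14 between the transduced groups, where each array correlated best with its own number and the passages in the titles match by number, a hint of shared dishes that the labels do not state. Pairs with parental arrays gave -0.20 to 0.15 without such a pattern. By the methods, SN cells come off in trypsin from dishes whose remaining colonies are kept as Colony cells. Same-numbered arrays of these groups may thus share a dish. The numbers were not taken to pair samples, since not every correlation was over 0.1. The main tests between the transduced groups therefore treat the arrays as independent, which ignores a pairing if there was one, and the replicate block gives the paired version.

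ERN1 and CDNF had no value for OSK-A549-Colony against parental A549 with detection on all arrays of a group. Some settings turned signs. Normexp gave ERN1 0.039 for OSK-A549-SN against parental A549, CRELD2 0.024 for OSK-A549-Colony against parental A549, and CRELD2 0.013 and CEBPB -0.0071 between the transduced groups. Quantile normalization gave CRELD2 -0.021 for OSK-A549-SN against parental A549 and MANF 0.011 between the transduced groups, where slide as a block gave HSPA5 -0.0064, ATF6B 0.015 and CEBPB -0.030. Without parental replicate 3 and OSK-A549-SN replicate 3, HERPUD1 (0.026), MANF (0.044), MBTPS1 (0.024) and DDOST (0.068) reversed for OSK-A549-SN against parental A549. With 1 array left out, OSK-A549-Colony against parental A549 gave CRELD2 -0.11 to 0.17 and HERPUD1 -0.069 to 0.13. Including that pair left out, OSK-A549-SN against parental A549 gave CRELD2 -0.047 to 0.36, HERPUD1 -0.26 to 0.026, MANF -0.20 to 0.044, MBTPS1 -0.21 to 0.024 and DDOST -0.27 to 0.068. Between the transduced groups the ranges were -0.19 to 0.045 for CRELD2, -0.0064 to 0.096 for HSPA5, -0.30 to 0.015 for ATF6B and -0.042 to 0.095 for CEBPB.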
